A study of Capra hircus with 90 samples.

Results

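TRIM28 and ZNF329 are 2 of the 25144 genes in a count table from the goat brainstem. TRIM28 (ENSCHIG00000012441), also called KAP1, is a corepressor, and ZNF329 (ENSCHIG00000005735) is a zinc finger protein. They were chosen from measured values: among the authors' deposited tables of genes that differed between CO2 and room air, both are listed only in the one for the ventral respiratory column after 24 h. The values that chose them are therefore described below without a test. Tests of CO2 and of site are given for the 7 d libraries, which that 24 h contrast did not compare. The deposited values were matched by a fit over all 90 libraries, so 7 d libraries may have entered the authors' estimate of spread. The correlation of the 2 genes within groups is tested over both batches. The deposited tables pair symbols with fold changes but not with Ensembl identifiers, so each symbol was linked to its row of counts by its deposited mean abundance, which gave exactly 1 row for each of the 2 genes. In this way 238 symbols were linked, each belonging to a gene that the authors picked from these very libraries.

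The animals were adult outbred female goats of at least 2 years, of Alpine, Saanen, Toggenburg and other breeds. Of the 5 groups of 6 goats, 1 breathed room air for 24 h, 1 breathed 6% CO2 for 3 h, 1 breathed 6% CO2 for 24 h, 1 breathed room air for 7 d and 1 breathed 6% CO2 for 7 d. Punches of frozen sections were taken at 3 sites: the nucleus of the solitary tract (NTS), the ventral respiratory column (VRC), which includes the preBötzinger complex and nucleus ambiguus, and the retrotrapezoid nucleus (RTN). Measured rostrally from the obex, they lay at 0 to 2 mm, 2 to 4 mm and 8 to 10 mm. RNA of the 3 shorter groups was extracted and sequenced in a first batch and that of both 7 d groups in a second, so batch and duration cannot be told apart between them. The 24 h room-air goats served as controls for both the 3 h and the 24 h exposure, since no room air was given for 3 h.

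TRIM28 has no DNA-binding domain of its own. It is brought to chromatin by zinc finger proteins that carry a KRAB domain, and there it gathers a histone methyltransferase (SETDB1), heterochromatin proteins and a deacetylase complex, which together silence genes and transposable elements. In the brain it is known for keeping endogenous retroviruses silent in neural progenitors. ZNF329 belongs to the large zinc finger class of DNA-binding proteins and is much less studied. In the goat reference annotation ARS1.2, used here for names and gene order only, both genes lie on the same chromosome with 17 annotated genes between them. Of those, 14 are protein coding, and 7 carry zinc finger symbols (ZNF274, ZNF8, ZSCAN22, ZNF584, ZNF132, ZNF446 and ZBTB45). None of the genes listed within 10 places on either side of TRIM28 or ZNF329 had a linked symbol, so their counts were not read.

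The 90 libraries held between 5.46 M and 36.8 M counts, with a median of 23.3 M. Both genes were counted in every library. The lowest counts, 367 for TRIM28 and 74 for ZNF329, came from the shallowest library, replicate 4 of the VRC after 24 h of CO2. On the second principal component of all libraries (9.09% of the variance), 5 NTS libraries of the first batch were set off from the others: replicates 5 and 6 of room air, replicates 5 and 6 of 3 h CO2 and replicate 5 of 24 h CO2. Cell type could be checked only in part, since 7 of 33 marker genes had a linked symbol and no astrocyte or endothelial marker did. Levels below are TMM-scaled CPM (counts divided by the scaled library total), which are not divided by gene length, so TRIM28 and ZNF329 are not compared with each other in level.

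Across the 15 groups of site and exposure, both genes were highest in the same group and lowest in the same group. The highest was the VRC after 24 h of room air, with TRIM28 at 150.4 ± 6.98 CPM and ZNF329 at 30.18 ± 4.77 CPM (SD, n = 6). The lowest was the VRC after 24 h of CO2, with TRIM28 at 75.87 ± 13.7 CPM and ZNF329 at 14.48 ± 2.65 CPM (SD, n = 6). These are the 2 groups of the contrast that chose the genes, so the shared ends were in part fixed by the choice. For neither gene was any of the 14 steps between neighbouring groups in the order larger than the larger of the 2 SDs. Ranking 15 groups makes small steps likely, so this does not show a gradual order. VRC room air at 24 h was also the top group for 7.61% of the 17730 genes in the fit that linked the symbols, so being highest there is not rare. The share of genes lowest in the VRC after 24 h of CO2 was not counted.

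**Figure D1:**
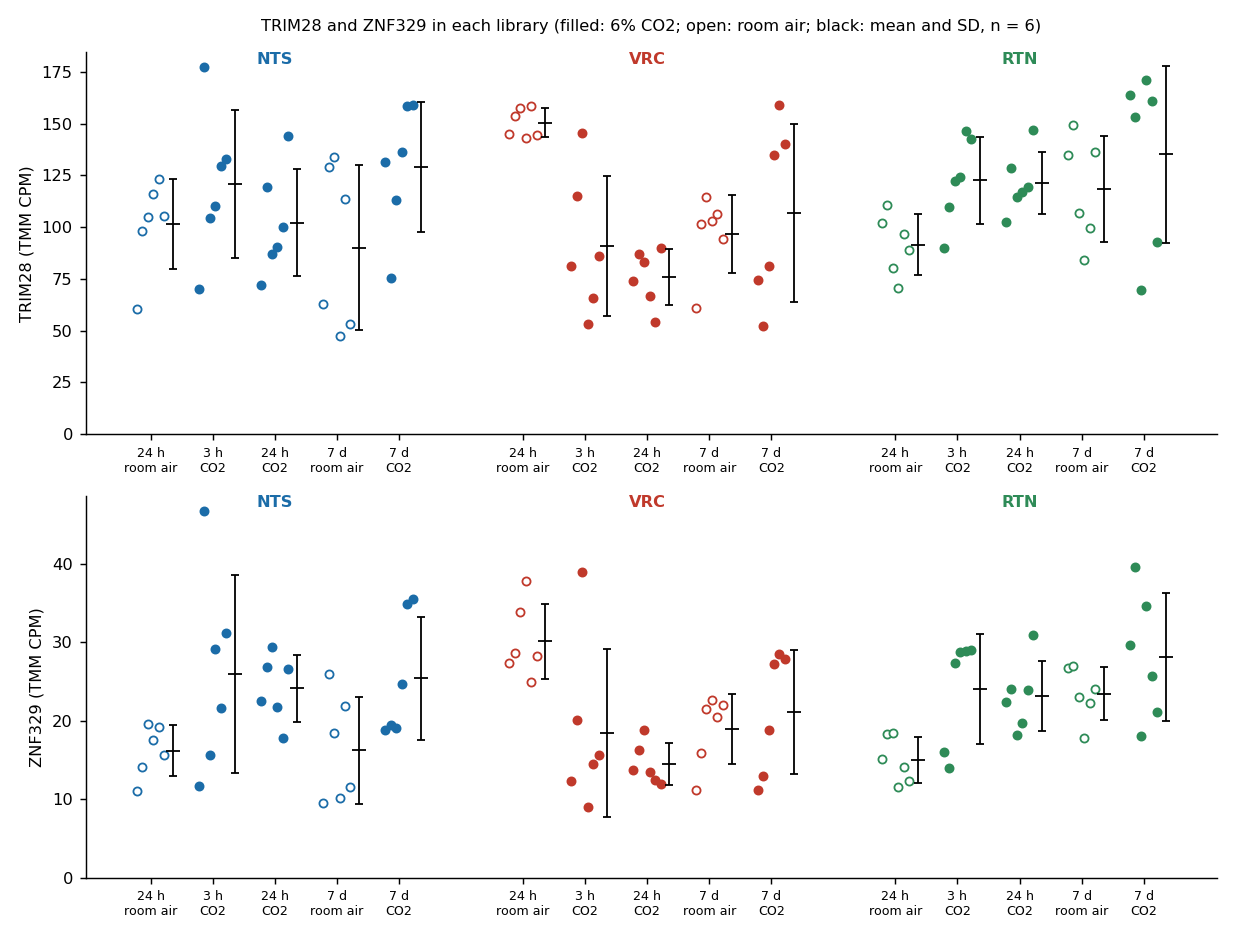
Level of TRIM28 (top) and ZNF329 (bottom) in each of 90 libraries, in TMM-scaled CPM, by site and exposure; filled points are 6% CO2, open points room air, and the black bar is the group mean with its SD (n = 6). In the VRC the 24 h room-air libraries lie between 143.2 and 158.5 CPM for TRIM28, above all 24 h CO2 libraries, which lie between 54.11 and 89.71 CPM.

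In the VRC, the values that chose the genes were as follows. TRIM28 was at 144.8, 153.5, 157.6, 143.2, 158.5 and 144.6 CPM in the 6 room-air libraries of 24 h, and at 73.94, 87.15, 83.36, 66.94, 54.11 and 89.71 CPM in the 6 libraries of 24 h CO2. ZNF329 was at 27.43, 28.65, 33.95, 37.83, 24.92 and 28.29 CPM in the same room-air libraries, and at 13.76, 16.34, 18.9, 13.5, 12.48 and 11.9 CPM after 24 h of CO2. For both genes every CO2 library lay below every room-air library. Groups that did not overlap with CO2 lower were found for 1.47% of the 15424 genes tested at this site. The mean in room air was 1.98 times that in CO2 for TRIM28 and 2.08 times for ZNF329.

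The edgeR estimate of the log2 change at 24 h in the VRC was -0.98 (SE 0.18) for TRIM28 and -1.06 (SE 0.25) for ZNF329. The authors' deposited table gives -0.99 with a false discovery rate of 0.00726 for TRIM28, and -1.06 with 0.0131 for ZNF329. The quasi-likelihood fit called 126 of the 15424 genes (0.817%) in this comparison, 112 of them lower in CO2 (0.726%). Both genes were among them, at adjusted p of 0.0154 for TRIM28 and 0.0489 for ZNF329. As the genes were picked from this contrast, none of these values is a test of it. With each of the 12 compared libraries left out in turn, the estimate stayed between -1.05 and -0.89 for TRIM28 and between -1.16 and -0.98 for ZNF329. In those same 12 fits TRIM28 was past an adjusted p of 0.05 in 11 (not without CO2 replicate 1) and ZNF329 in 0, and the number of genes called ran from 18 to 126.

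After 3 h of CO2 the VRC libraries were more spread. TRIM28 was at 81.38, 114.9, 145.3, 53.05, 65.63 and 86.02 CPM, and ZNF329 at 12.3, 20.14, 39.04, 9.051, 14.51 and 15.69 CPM. Over all genes at this site and time, edgeR called 2 of 15424 (0.013%), where DESeq2 found 121, limma voom 44 and the edgeR fit with a replicate block 95. For each gene 5 of 6 libraries lay below the lowest room-air library, and replicate 3 was inside the room-air range for TRIM28 and above it for ZNF329. The log2 change was -0.72 (SE 0.18) for TRIM28 and -0.70 (SE 0.24) for ZNF329. Without replicate 3 of the 3 h group the changes were -0.91 and -1.07, the value for ZNF329 being over 1.5 times the estimate with all libraries.

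In the RTN, the direction was the opposite. TRIM28 was at 102, 110.7, 80.34, 70.81, 96.48 and 89.06 CPM in the 24 h room-air libraries, at 89.69, 109.8, 122.4, 124.2, 146.6 and 142.7 CPM after 3 h of CO2, and at 102.6, 128.7, 114.5, 116.9, 119.3 and 146.7 CPM after 24 h. ZNF329 was at 15.09, 18.28, 18.5, 11.58, 14.08 and 12.38 CPM in room air, at 16.02, 14, 27.44, 28.83, 28.89 and 29.07 CPM after 3 h and at 22.41, 24.08, 18.14, 19.68, 23.9 and 30.96 CPM after 24 h. For each gene 4 of 6 libraries at 3 h and 5 of 6 at 24 h lay above the highest room-air library, so the groups overlapped. Over all 15479 genes edgeR called 2 (0.0129%) at 3 h. At 24 h it called 0 (0%), with 1001 genes at an unadjusted p under 0.05, where DESeq2 found 9 and limma voom 0. The log2 change of TRIM28 was 0.42 (SE 0.12) at 3 h and 0.41 (SE 0.12) at 24 h, and that of ZNF329 was 0.68 (SE 0.19) and 0.63 (SE 0.19). The opposite sign in the VRC and RTN of the first batch was known when the genes were chosen, and it was not tested here.

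In the NTS of the first batch the estimated change of ZNF329 was larger than that of TRIM28 at both times, but the difference was not tested. TRIM28 was at a mean of 101.4 ± 21.8 CPM in room air, 120.8 ± 35.7 CPM after 3 h and 102.1 ± 25.8 CPM after 24 h of CO2 (SD, n = 6). Its log2 change was 0.26 (SE 0.20) at 3 h and 0.02 (SE 0.20) at 24 h, and the sign at 24 h turned with single libraries left out, from -0.12 to 0.10. ZNF329 was at 11.05, 14.11, 19.59, 17.59, 19.25 and 15.67 CPM in room air and at 22.51, 26.86, 29.46, 21.82, 17.76 and 26.6 CPM after 24 h of CO2, where 5 of 6 libraries lay above the highest room-air library. Its log2 change was 0.70 (SE 0.25) at 3 h and 0.58 (SE 0.25) at 24 h. Over all 15605 genes edgeR called 0 (0%) at each time, with 1053 and 1591 at an unadjusted p under 0.05. DESeq2 found 12 and 191, and limma voom 1 and 273. Without the 5 libraries that stood apart, the 3 h and 24 h changes were 0.29 and 0.12 for TRIM28 and 0.77 and 0.70 for ZNF329, and the number of genes edgeR called was 5 at 3 h and 148 at 24 h.

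**Figure D2:**
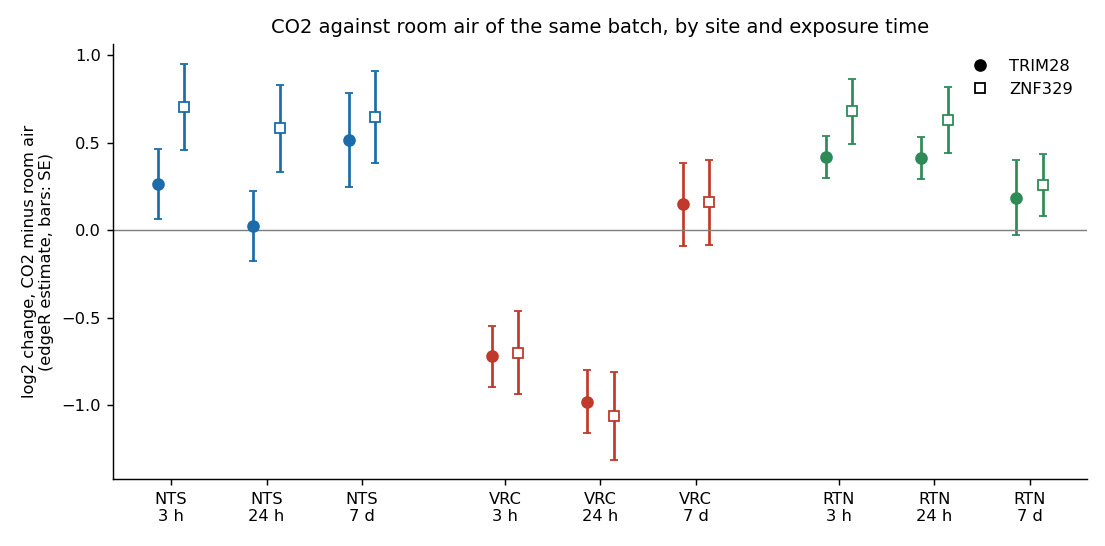
Log2 change of TRIM28 (filled circles) and ZNF329 (open squares) in 6% CO2 against room air of the same batch, at each site and exposure time, as estimated by edgeR with its SE. The 3 h and 24 h points of a site share the same room-air libraries; both genes are below 0 in the VRC at 3 h and 24 h only.

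The 7 d libraries, from other goats and another batch, were tested. In the VRC, where both genes had been lower at 24 h, TRIM28 was at 61.03, 101.3, 114.7, 102.9, 106.2 and 94.27 CPM in room air and at 74.5, 52.34, 81.25, 134.6, 159 and 140 CPM after 7 d of CO2. ZNF329 was at 11.19, 15.85, 21.52, 22.61, 20.54 and 22.03 CPM in room air and at 11.19, 12.97, 18.88, 27.3, 28.55 and 27.86 CPM in CO2. The CO2 libraries lay on both sides of the room-air range for TRIM28, and for both genes 3 of them were above it. The log2 change was 0.15 (95% interval -0.36 to 0.66) for TRIM28 and 0.16 (-0.36 to 0.68) for ZNF329, with edgeR adjusted p of 0.911 and 0.908. The difference between the 24 h and 7 d effects was not tested.

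In the NTS after 7 d, TRIM28 was at 63.01, 129.1, 134.1, 47.65, 113.6 and 53.23 CPM in room air and at 131.3, 75.66, 112.9, 136.4, 158.6 and 159 CPM in CO2. ZNF329 was at 9.474, 25.93, 18.47, 10.21, 21.88 and 11.58 CPM in room air and at 18.9, 19.44, 19.07, 24.75, 34.89 and 35.5 CPM in CO2. Room-air libraries were widely spread for both genes, with replicates 1, 4 and 6 low for each, and the groups overlapped. The log2 change was 0.52 (95% interval -0.06 to 1.09) for TRIM28, with an edgeR adjusted p of 0.646. For ZNF329 it was 0.65 (0.09 to 1.21), and its edgeR p of 0.0265 did not pass adjustment over the 15311 genes tested (adjusted p 0.599).

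In the RTN after 7 d, TRIM28 was at 134.7, 149.3, 106.6, 83.9, 99.63 and 136.2 CPM in room air and at 163.6, 153.4, 69.67, 170.8, 160.7 and 92.78 CPM in CO2. ZNF329 was at 26.71, 26.96, 23.04, 17.77, 22.31 and 24.09 CPM in room air and at 29.66, 39.59, 18.09, 34.7, 25.77 and 21.17 CPM in CO2. Replicates 3 and 6 were the lowest CO2 libraries for each gene, and the groups overlapped. The log2 change was 0.19 (95% interval -0.28 to 0.65) for TRIM28 and 0.26 (-0.12 to 0.63) for ZNF329, with an edgeR adjusted p of 0.999 for each.

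These 7 d comparisons called few genes of any kind. In edgeR's quasi-likelihood test 1 gene (0.00653%) passed in the NTS, 0 (0%) at the VRC site and 0 (0%) at the RTN site. Before adjustment, 1228, 996 and 499 genes had a p under 0.05. By DESeq2 the calls were 75, 2 and 2, and by limma voom with quality weights they were 2, 0 and 0. Neither TRIM28 nor ZNF329 passed in any of these.

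The CO2 effect at 7 d was then compared between sites in a fit of all 36 second-batch libraries. The effect on TRIM28 in the VRC minus that in the NTS was -0.37 on the log2 scale (95% interval -1.14 to 0.40), and for ZNF329 it was -0.49 (-1.21 to 0.24). The RTN minus NTS differences were -0.33 (-1.10 to 0.44) and -0.39 (-1.10 to 0.33), and the RTN minus VRC differences 0.04 (-0.73 to 0.81) and 0.10 (-0.62 to 0.82). In edgeR's joint test over the 3 sites the adjusted p was 0.957 for TRIM28 and 0.93 for ZNF329. Over the 16050 genes this test called 0 (0%), and 761 had a p under 0.05 before adjustment. The calls were 4 by DESeq2 and 0 by limma voom. With exposure and replicate number together as a block edgeR called 10, and the 2 genes had adjusted p of 0.672 and 0.638.

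In room air at 7 d both genes had the same order of means, NTS, VRC, RTN. TRIM28 was at 90.1 ± 39.7, 96.73 ± 18.7 and 118.4 ± 25.4 CPM, and ZNF329 at 16.26 ± 6.85, 18.96 ± 4.51 and 23.48 ± 3.38 CPM (SD, n = 6). The largest difference, RTN over NTS, was 0.40 on the log2 scale (95% interval -0.10 to 0.90) for TRIM28 and 0.53 (0.07 to 1.00) for ZNF329. In edgeR the adjusted p was 0.342 and 0.155, in a comparison that called 1289 of 15591 genes (8.27%). For VRC over NTS the adjusted p was 0.844 and 0.6 (8.72% of genes called), and for RTN over VRC 0.558 and 0.494 (4.52% called). With the replicate number as a block over the 3 sites, the genes called were 2625 for VRC over NTS, 2371 for RTN over NTS and 1979 for RTN over VRC, against 1359, 1289 and 704 without it, and neither TRIM28 nor ZNF329 was among them. In room air at 24 h, in the first batch, the order was different: TRIM28 was at 150.4 CPM in the VRC, 101.4 CPM in the NTS and 91.58 CPM in the RTN, and ZNF329 at 30.18, 16.21 and 14.98 CPM. The VRC room-air mean of TRIM28 was thus 150.4 CPM in the first batch and 96.73 CPM in the second, and that of ZNF329 30.18 and 18.96 CPM. Batch and time in the chamber differ together between these groups and cannot be told apart.

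The 2 genes also went together from library to library within a group. After subtracting each group's mean log2 CPM, TRIM28 and ZNF329 correlated over the 30 libraries of each site. Pearson's r was 0.797 for NTS libraries, 0.837 for VRC libraries and 0.744 for RTN libraries. Spearman's rho was 0.774, 0.749 and 0.723 in the same order of sites. Permuting libraries within groups gave p of 4e-05, 3e-05 and 4e-05 for r, and 0.0001, 0.00016 and 3e-05 for rho. The adjusted p of r over the 3 sites was 4e-05 at each (2-sided permutation tests, 100000 resamples). These tests pool both batches, and the VRC libraries among them include those of the contrast that chose the genes. Within the first batch alone r was 0.747, 0.793 and 0.695 (n = 18 each). Within the second, which that contrast did not compare, it was 0.856, 0.893 and 0.872 (n = 12 each). The permutation p in the second batch was 0.0062, 0.00296 and 0.00051 for r, and 0.0155, 0.00441 and 0.00485 for rho. Over both batches, without the 2 libraries of a site farthest from the median in TRIM28, Pearson's r was 0.793, 0.805 and 0.685 (n = 28 each). Between sites, 85 of 90 pairs of libraries with the same exposure and number had a correlation of residuals over all genes above 0.1, so the sites do not count as 3 independent samples.

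**Figure D3:**
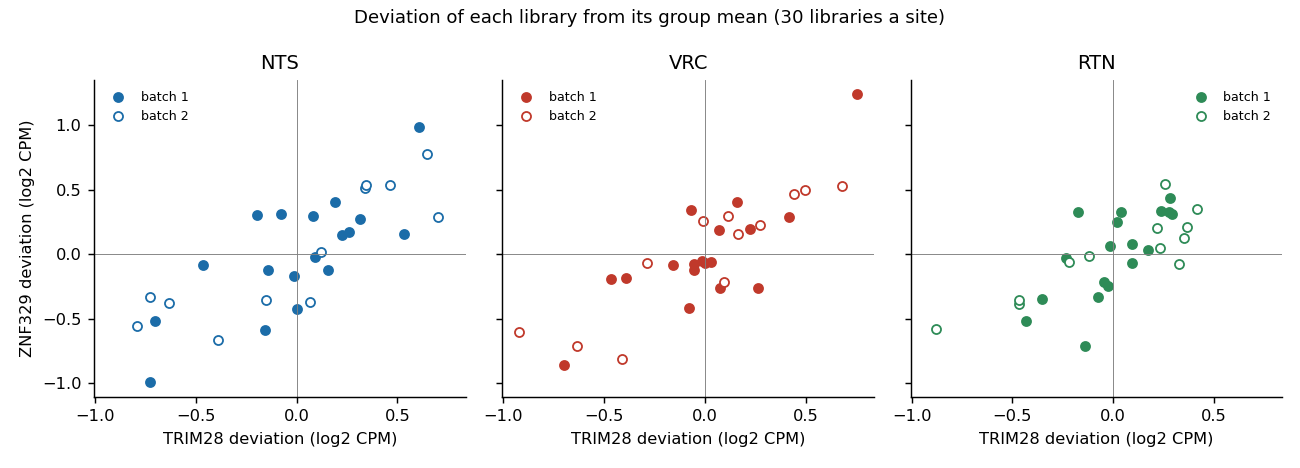
Deviation of each library from its group's mean log2 CPM, TRIM28 on the horizontal and ZNF329 on the vertical axis, for the 30 libraries of each site; filled points are the first batch and open points the second. Pearson's r is 0.797 for the NTS, 0.837 for the VRC and 0.744 for the RTN panel.

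By single group of 6 libraries, r was above 0 in 14 of 15 groups, with a median of 0.857 and a highest value of 0.931. The exception was VRC room air at 24 h, at -0.297, the group in which TRIM28 had its smallest SD (6.98 CPM). The log2 ratio of TRIM28 to ZNF329 counts varied less over the 15 group means than either gene did: from 2.06 in the NTS after 24 h of CO2 to 2.64 in the NTS after 24 h of room air, a range of 0.57. The log2 CPM means themselves spanned 1.01 for TRIM28 and 1.06 for ZNF329. Both spans run between the 2 VRC groups of the contrast that chose the genes. The smaller range of the ratio was therefore in part fixed by the choice.

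This co-variation was shared with some other genes, a small part of all those measured. Over the 90 libraries, with group means removed, r between TRIM28 and ZNF329 was 0.800. Against TRIM28, 83 of the other 17729 genes had a higher r than ZNF329, and against ZNF329, 18 had a higher r than TRIM28. The median r of all genes with TRIM28 was -0.01 and the 95th percentile 0.337. A group of 171 genes had a residual r of at least 0.7 with TRIM28. In the VRC at 24 h all 171 had a lower estimate in CO2, with a median log2 change of -0.70 against 0.00 for all 15424 genes, of which 49.6% were lower. In the VRC at 3 h 170 of the 171 were lower (median -0.56), against 50.6% of all genes. In the RTN 1 was lower at 3 h (median 0.43) and 5 at 24 h (median 0.36), against 50.9% and 50.3% of all genes. The first-batch NTS differed between times. At 3 h 5 of the 171 were lower (median 0.29), against 46.7% of all genes. At 24 h 83 were lower (median 0.00), which is 48.5% against 47.4% of all genes. At 7 d the medians for NTS, VRC and RTN were 0.48, 0.12 and 0.10, and 1, 46 and 60 of the 171 were lower. Of all genes 52.5%, 49.4% and 51.1% were lower in these comparisons. This set was formed after the data were seen and its counts describe these libraries only. TRIM28 was chosen as lower in the VRC at 24 h, so the direction of the set there was in part fixed by the choice. The 3 h comparison shares the same room-air libraries. The 171 genes were picked for varying with TRIM28, so they do not count as separate observations.

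Among the linked genes whose group means were most like TRIM28's over the 15 groups were CTBP1, a transcriptional corepressor (r 0.962), and NT5DC2 (r 0.950). Among those most like ZNF329's were TRIM28 itself (r 0.924) and CNNM3 (r 0.922), where TRIM28 was first among all 17729 genes, while ZNF329 was 11th for TRIM28. The 15 means include both VRC groups of the contrast that chose the genes, which are also each gene's highest and lowest, so part of this likeness was fixed by the choice. Within groups, over 90 libraries, the closest to TRIM28 included RFNG, a glycosyltransferase that modifies Notch (r 0.925), and OLIG1, a transcription factor of the oligodendrocyte lineage (r 0.903). The closest to ZNF329 were the kinase AKT1 (r 0.869), AGFG1 (r 0.864) and CDK2AP1 (r 0.863). In the VRC at 24 h CTBP1 was at 70.9 ± 15.2 CPM in room air and 30.2 ± 5.04 CPM in CO2 (SD, n = 6). Its log2 change there was -1.23 (SE 0.32), and in the RTN at 24 h it was 0.74 (SE 0.21). Neither change was called by edgeR (adjusted p 0.0994 and 0.458), as a description and not a test. Genes without a linked symbol could not be named.

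**Figure D4:**
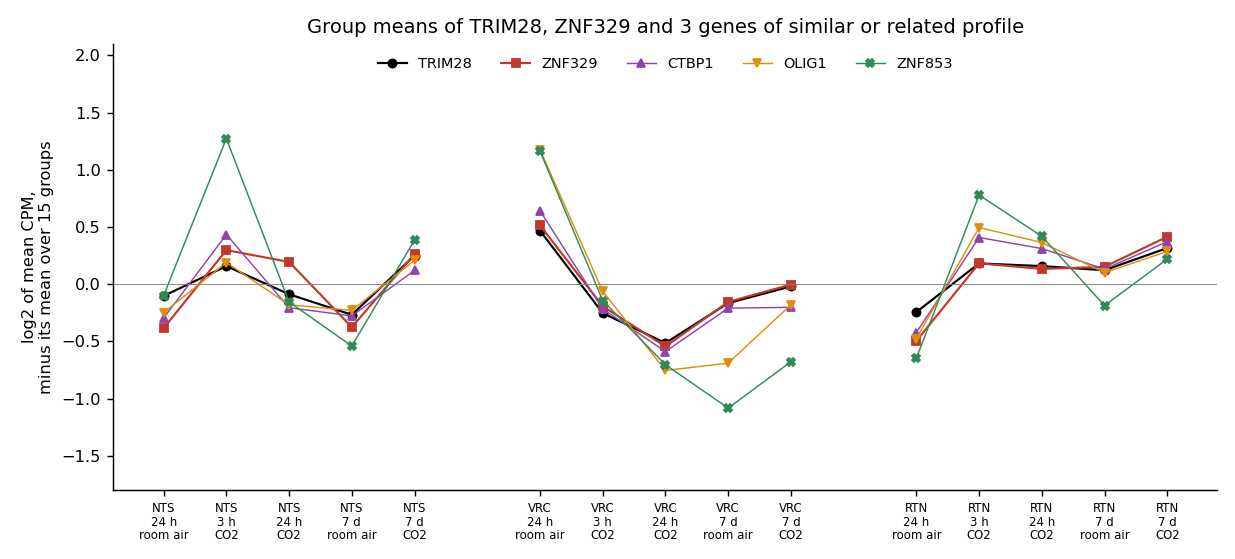
Log2 of the mean CPM of TRIM28, ZNF329, CTBP1, OLIG1 and ZNF853 in each of the 15 groups, minus the gene's mean over the groups (0 line). All 5 genes are at or near their highest point in VRC room air at 24 h, and all 5 are below their mean in the VRC after 24 h of CO2.

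Of the other genes of the TRIM28 pathway little could be read. In a list of 30 genes of the pathway (among them SETDB1, the CBX heterochromatin proteins, CHD4, the deacetylases and the DNA methyltransferases) TRIM28 alone had a linked symbol. The other 29 were not analysed here. Outside that list, 2 linked genes of histone deacetylase complexes were chosen after their values were seen. GATAD2A, a subunit of the NuRD complex, was at 17.8 ± 3.56 CPM in VRC room air at 24 h and 10.5 ± 2.18 CPM in CO2 (SD, n = 6), a log2 change of -0.76 (SE 0.17), and it is in the authors' deposited table of that contrast. SAP30, a subunit of the SIN3 complex, is in their NTS table at 7 d, where it was at 4.95 ± 3 CPM in room air and 9.87 ± 2.25 CPM in CO2, a log2 change of 0.98 (SE 0.34) that did not pass in edgeR here (adjusted p 0.525). In the VRC at 24 h its log2 change was -0.40 (SE 0.19). Among zinc finger symbols 3 were linked: ZNF329, ZNF316 and ZNF853. All 3 are in the authors' deposited VRC table at 24 h, which was the rule's own contrast. ZNF853 was at 8.21 ± 3.99 CPM in VRC room air at 24 h and at 2.25 ± 0.51 CPM after 24 h of CO2 (SD, n = 6), a log2 change of -1.95 (SE 0.46). ZNF316 was at 1.81 ± 0.81 CPM and 0.47 ± 0.29 CPM, with 1 CO2 library at 0, and its log2 change was -1.65 (SE 0.44). In the edgeR fit used here neither ZNF853 nor ZNF316 was called in this contrast (adjusted p 0.0517 and 0.0778), as a description and not a test.

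In the RTN the log2 change of ZNF853 was 1.43 (SE 0.37) at 3 h and 1.06 (SE 0.39) at 24 h, and that of ZNF316 1.27 (SE 0.36) and 0.71 (SE 0.40). None of these was called by edgeR (adjusted p 0.346 and 0.661 for ZNF853, 0.362 and 0.82 for ZNF316). Both genes were linked through a first-batch contrast, so these values are a description and not a test. In the NTS at 3 h the changes were 1.39 (SE 0.59) and 1.02 (SE 0.48), where ZNF329 had 0.70. At 24 h both were -0.03, with SEs of 0.64 and 0.53, where ZNF329 had 0.58. None of these NTS changes was called by edgeR either, again as a description.

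The 2 linked oligodendrocyte markers of 6 on that list were OLIG1 and OLIG2. Both have a linked symbol because they are listed as lower in the authors' deposited VRC table at 24 h, so their direction in that contrast was fixed by the choice, and the other 4 were not analysed here. They summed to between 96.1 and 146 CPM (median 122) in VRC room air at 24 h, and to between 21.4 and 45.6 CPM (median 37.6) after 24 h of CO2, with no overlap. After 3 h of CO2 the sum ran from 17.1 to 135 CPM (median 39.2). In the RTN it ran from 26.2 to 69.3 CPM (median 36.3) in room air and from 60.7 to 99.7 CPM (median 67.4) after 24 h of CO2. In the NTS it ran from 28.5 to 65.9 CPM (median 49.7) in room air and from 24.7 to 106 CPM (median 44.2) after 24 h of CO2, where ZNF329 had means of 16.21 and 24.17 CPM and TRIM28 of 101.4 and 102.1 CPM. In the VRC at 7 d it ran from 13.5 to 47.3 CPM in room air and from 13.6 to 75.3 CPM in CO2, all below the range of the 24 h room-air libraries. Neither marker was at 0 in sum in any group. The one linked microglial marker, AIF1, ran from 45.8 to 70.3 CPM in VRC room air at 24 h and from 46.2 to 70.9 CPM after 24 h of CO2. The linked neuronal marker PRPH, a marker of motor and peripheral neurons, had medians of 6 and 15.6 CPM there. It ran from 3.75 to 19.5 CPM in room air and from 2.01 to 29.6 CPM in CO2. The linked blood markers HBQ1 and HEMGN had summed medians of 10.7 and 12.2 CPM (6.96 to 17.3 and 10.5 to 15.5 CPM). TTR of the choroid plexus had medians of 1.99 and 11.8 CPM, and ran from 0.482 to 2.58 CPM in room air and from 1.39 to 164 CPM in CO2. The part of cell composition in the levels of TRIM28 and ZNF329 was not tested. In tissue punches, fewer cells of a type and less RNA per cell cannot be told apart.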

How the data were processed

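RNA was measured in 90 punches, 6 in each of 15 groups of site and exposure, with SMART-Seq v4 and Nextera XT libraries read as 100-bp pairs, per the labels' protocols. Tools named in the submitters' processing notes are edgeR 4.6, featureCounts 2.0.6, STAR 2.7.10b and fastp 0.24.0. Build and annotation: not given in the sources used here. Raw counts, one row for each Ensembl gene, were deposited by the authors. Per the file headers, the authors' deposited comparison tables give log2 fold changes and log2 mean abundances, a likelihood ratio (a score), and p-values with false discovery rates.

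Symbols were linked by equal mean abundance (tolerance 1e-06) from a likelihood ratio fit over 90 libraries and 15 groups with a minimum count of 5, which kept 17730 genes. Of 342 deposited entries, 341 matched exactly 1 gene. The 2 genes and the lists were chosen with earlier results of these data known.

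The tests used edgeR 4.0.16 under R 4.3.3 (filterByExpr, TMM, glmQLFit with robust=TRUE, quasi-likelihood F test), Benjamini-Hochberg adjustment over all genes and a threshold of 0.05. Each CO2 comparison was fitted on that site's libraries of one batch, the site difference on all 7 d libraries and the room-air comparisons on the 7 d room-air libraries. Residual correlations used log2 CPM with a prior count of 2. Alternatives were RLE factors, DESeq2 1.42.0, limma 3.58.1 voom, other filters, all 90 libraries, a replicate block and each library left out. The block was the replicate number in fits of 1 site, and exposure with replicate number in fits of several sites. Fits were tested on simulated data. Genes named are the 2 genes, linked members of the fixed lists, and for each of the 2 the 3 linked genes of highest r over group means and the 3 of highest r over residuals. One gene that this rule names is not reported here. The labels give 6 goats per exposure but do not tie replicate numbers at the 3 sites to single goats.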

Additional observations from a re-analysis of the deposited data

Results flagged for a closer look

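In 1 of 30 sets of 6 libraries (2 genes in 15 groups) a library lay far from the others. ZNF329 was at 39.04 CPM in replicate 3 of the VRC after 3 h of CO2, and the next highest of that group was at 20.14 CPM. The gap was 0.63 of the group's range, against a limit of 0.625. Chance gives such a gap in about 1 of 20 groups. TRIM28 was highest in the same library, at 145.3 CPM.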

How the results depend on the processing

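In the 7 d comparisons no alternative other than leaving out a library moved TRIM28 or ZNF329 across the threshold or changed a sign, over 98 values. With single libraries left out, the log2 difference of ZNF329 between RTN and NTS in room air at 7 d ran from 0.421 to 0.713, and its edgeR adjusted p fell to 0.0493 without NTS replicate 2. The difference of TRIM28 between VRC and NTS in room air ran from -0.0204 to 0.256, below 0 without NTS replicate 4 or replicate 6. The first-batch log2 estimates moved by less than 1 SD of the libraries under every alternative run. Without 1 of 6 libraries a group mean can hardly move that far, so this limit says little of those fits. Among them the change of ZNF329 in the VRC at 3 h ran from -1.07 to -0.557. The correlations kept their side of the threshold under every alternative run. The calls in the VRC at 24 h did not all hold: ZNF329 lost its call in each of the 12 fits without 1 library, and TRIM28 in the one without CO2 replicate 1. Group means under RLE factors or plain totals moved by less than 1 SD in all 60 cases. In the VRC at 24 h the number of genes called was 126 by edgeR, 274 by DESeq2, 164 by voom and 179 with the replicate block. It was more than 1.5 times lower in 9 of the 12 fits without 1 library: without room-air replicate 1, 2, 3 or 4, or CO2 replicate 1, 2, 3, 4 or 5, and lowest, at 18, without CO2 replicate 1. Between exposures, which used different goats, same-number pairs with a residual correlation over 0.1 were 3 of 18 at 7 d and 11 of 36 in the first batch, of which 7 were in the NTS. Between sites they were 85 of 90. With the number as a block, the 7 d changes of TRIM28 at NTS, VRC and RTN were 0.603, 0.0746 and 0.141, and those of ZNF329 0.684, 0.113 and 0.22. With exposure and number together as the block, the site difference (VRC minus NTS) was -0.483 and -0.528. The blocked RTN over NTS difference in room air was 0.481 and 0.592. No call of either gene changed with the block. Depth limits ZNF329 more than TRIM28, since its lowest count was 74.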
